A study of Homo sapiens with 8 samples.

Results

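Distal ER binding sites that carried an AP-1 motif and no estrogen response element (ERE) were described in LY2, a breast cancer line that expresses ER and resists endocrine therapy. There were 889 such sites among 25365 merged ER sites, of which 24084 were distal. ER chromatin immunoprecipitation and sequencing (ChIP-seq) was compared between cells transfected with a control siRNA (siCtrl) and cells transfected with a pool of siRNAs against the kinase CDK12 (siCDK12). Both groups were kept in medium without 4-hydroxytamoxifen and with depleted serum, transfected for 48 hours and given 1 µmol/L estradiol for 1 hour. The groups share a single replicate number, so a difference of day or batch between them cannot be told apart from that of the siRNA. The ER peak lists of 4 libraries were used, siCtrl replicates 2 and 3 and siCDK12 replicates 3 and 4. LY2 is a single cell line, the lists hold no measure of CDK12 itself, and the authors left out a divergent replicate of each condition. Nothing states that the libraries of a condition came from separate cultures, so a p-value measures the spread between libraries, which may be technical.

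On chromosomes 1 to 22 and X, peaks whose q-value was below 0.05 were merged into sites where they overlapped by at least 1 bp, and the summit of a site was that of its peak with the highest -log10 q. A site was kept when the 7 letters TGACTCA or TGAGTCA, the same element read on either strand, lay within 100 bp of the summit, when no ERE (GGTCANNNTGACC, allowing 1 mismatch over the 10 fixed bases) lay there, and when the summit was over 1 kb from any start of a protein-coding or lncRNA transcript (GENCODE release 44). Distal ERE sites numbered 437, and 22758 distal sites held neither element. The rule did not use the condition or the number of libraries with a peak, but the q-value decided which peaks entered and which summit the motif windows were centred on.

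AP-1 is a dimer of FOS and JUN family proteins, or of their relatives, that binds this element at enhancers and answers to growth factor and stress signaling. ER binds the ERE directly as a dimer, and it can also be held on DNA by AP-1 without touching an ERE, which is known as tethering. AP-1 activity is known in breast cancer cells that no longer respond to endocrine therapy. A motif in the reference sequence is a match of letters, and no AP-1 protein was measured in these libraries.

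Both libraries of a condition had a peak at few AP-1 sites, 26 in siCtrl and 4 in siCDK12. Not all are shown, and PPM1D, CHCT1, KRT85 and CYP24A1, described below, are among those left out. At PPM1D and CHCT1 the siCDK12 fold was not below both siCtrl folds. The sequences of 11 sites are given here. Each is the GRCh38 plus strand, 5′ to 3′, with the AP-1 motif in capitals and 30 bases on either side. The name is that of the nearest protein-coding start, which was up to 1576650 bp away. The first 3 were bound in both siCtrl libraries and also in 1 siCDK12 library.
PADI3, chr1:17237485-17237551: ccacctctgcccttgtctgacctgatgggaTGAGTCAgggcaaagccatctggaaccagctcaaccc
CLIC6, chr21:34734794-34734860: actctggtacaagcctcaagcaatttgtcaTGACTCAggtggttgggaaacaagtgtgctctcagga
SLITRK1, chr13:82305719-82305785: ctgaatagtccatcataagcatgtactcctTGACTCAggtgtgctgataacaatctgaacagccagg
The next 5 were found in both siCtrl libraries but not in siCDK12, and such sites are called lost.
RAD23B, chr9:107131658-107131724: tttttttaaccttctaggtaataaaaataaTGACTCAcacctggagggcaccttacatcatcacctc
RGS9, chr17:65243881-65243947: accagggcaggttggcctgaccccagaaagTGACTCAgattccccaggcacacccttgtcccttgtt
SYNDIG1, chr20:24660137-24660203: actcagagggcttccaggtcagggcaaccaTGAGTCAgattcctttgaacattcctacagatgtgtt
PRDM1, chr6:106135334-106135400: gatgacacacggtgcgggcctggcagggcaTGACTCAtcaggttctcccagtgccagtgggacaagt
VCAN, chr5:83387206-83387272: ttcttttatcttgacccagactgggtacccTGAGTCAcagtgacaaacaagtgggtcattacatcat
The last 3 were found in both siCDK12 libraries but not in siCtrl, and such sites are called gained.
FLRT2, chr14:86000892-86000958: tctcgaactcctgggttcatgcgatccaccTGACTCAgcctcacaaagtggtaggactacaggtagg
SNTN, chr3:63662192-63662258: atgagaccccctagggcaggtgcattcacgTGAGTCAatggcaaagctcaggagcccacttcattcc
PRMT6, chr1:106620758-106620824: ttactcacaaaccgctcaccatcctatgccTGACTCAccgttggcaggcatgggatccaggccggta

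Over all distal sites of a library, the AP-1 motif was found near ER summits only slightly more often than in nearby sequence. Of the 585 distal sites with a peak in both siCtrl libraries, 26 were AP-1 sites. Among distal sites without an ERE, which is another base, those in both siCtrl libraries had a higher share than those in 1 library. These shares are given further below. The siCtrl libraries held 434 (replicate 2) and 187 (replicate 3) AP-1 sites. The siCDK12 libraries held 141 (replicate 3) and 180 (replicate 4). They made up 3.80% of the 11419 distal sites of siCtrl replicate 2 (exact 95% interval 3.46% to 4.17%) and 4.04% of the 4630 of siCtrl replicate 3 (3.49% to 4.65%). The shares were 3.08% of 4581 distal sites in siCDK12 replicate 3 (2.60% to 3.62%) and 3.64% of 4939 in siCDK12 replicate 4 (3.14% to 4.21%). In windows of the same 201 bp centred 1000 bp downstream of the same summits, the shares were 2.85%, 2.76%, 2.95% and 2.88%. The summit share was therefore 1.34, 1.46, 1.04 and 1.27 times the downstream share. In the siCtrl libraries the intervals of the summit and downstream shares did not overlap. They overlapped almost fully in siCDK12 replicate 3 (downstream 2.48% to 3.48%) and in part in siCDK12 replicate 4 (downstream 2.43% to 3.38%). The median GC content was 49.3% in the summit windows of the AP-1 sites and 38.8% in their downstream windows, and its part in these shares was not tested. All intervals given for shares are exact Clopper-Pearson intervals and cover counting error only.

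**Figure D1:**
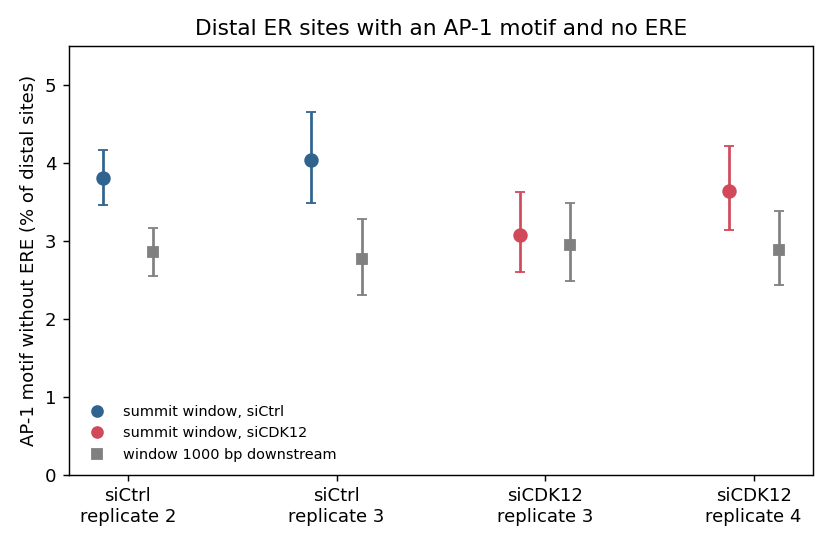
Share of distal ER sites with an AP-1 motif and no ERE (y axis, percent) in each library (x axis), in the summit window (circles) and in the window 1000 bp downstream (grey squares). Bars are exact 95% intervals. The summit shares lie between 3.08% and 4.04% and the downstream shares between 2.76% and 2.95%.

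The motif was not gathered at the summits. Over the 23647 distal sites without an ERE, it occurred 0.197 times per kb of sequence within 100 bp of the summit, 0.208 times between 100 and 200 bp, and 0.169 times between 400 and 500 bp. Among AP-1 sites, the motif closest to the summit lay a median of 50 bp away, and 236 of 889 had it within 25 bp, so the motifs were spread evenly over the window. A single motif was present at 876 sites, 2 motifs at 11 sites and 3 motifs at 2 sites. The 433 distal sites without an ERE that had a peak in both siCtrl libraries showed a higher density within 100 bp, 0.313 per kb, which rested on 27 motifs. Their density was 0.289 per kb between 100 and 200 bp, 0.115 between 200 and 300 bp, 0.242 between 300 and 400 bp and 0.104 between 400 and 500 bp, from 25, 10, 21 and 9 motifs, so it did not fall steadily with distance.

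**Figure D2:**
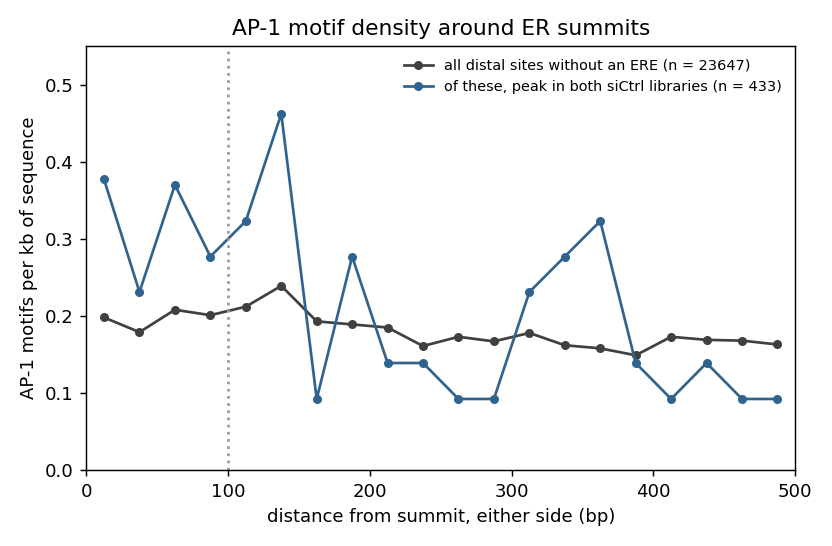
AP-1 motifs per kb of sequence (y axis) against the distance from the ER summit in bins of 25 bp (x axis), for all distal sites without an ERE (black) and for those with a peak in both siCtrl libraries (blue). The dotted line marks the 100 bp of the rule. The black curve stays near 0.2 per kb over 500 bp and each bin of the blue curve holds 10 motifs or fewer.

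The AP-1 share among strong ER sites varied with the library and with the number of sites taken. Of the 1000 distal sites with the highest -log10 q in each library, 48 held it in siCtrl replicate 2 (4.80%, 95% interval 3.56% to 6.31%) and 45 in siCtrl replicate 3 (4.50%, 3.30% to 5.98%). In siCDK12 replicate 3 it was 20 (2.00%, 1.23% to 3.07%) and in siCDK12 replicate 4 it was 43 (4.30%, 3.13% to 5.75%). The downstream windows of the same sites held it at 19, 25, 28 and 27 sites. The siCDK12 libraries thus differed from each other, and the siCDK12 replicate 4 share was within the intervals of both siCtrl libraries. Among the 100 strongest distal sites, the counts were 3, 5, 2 and 0, and the exact 95% upper limit for 0 of 100 is 3.62%, so siCDK12 replicate 4 had the lowest count there.

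The number of AP-1 sites was highest in the library with the longest peak list. The mean per library was 310.5 in siCtrl and 160.5 in siCDK12, a ratio of 0.517 (two-sided exact permutation test over 6 assignments, p = 0.333, n = 2 libraries per condition), and 0.333 is the smallest p-value this design allows. The siCtrl replicate 2 list was the longest, with 12021 peaks against 4955, 4819 and 5224, and without that library the ratio was 0.871. With the same number of peaks in each library it was 0.866. As a share of distal sites, AP-1 sites were 3.92% on average in siCtrl and 3.36% in siCDK12, a difference of -0.559 percentage points (exact permutation test, p = 0.333). Both siCDK12 shares lay below both siCtrl shares. The downstream share differed by 0.106 points between the conditions in the other direction (exact permutation test, p = 0.333).

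Most AP-1 peaks were weak, like most distal peaks. The median fold over local background at AP-1 sites, 4.25 and 4.16 for siCtrl against 4.09 and 4.12 for siCDK12, stood beside medians over all distal sites of 4.21, 4.17, 4.09 and 4.12 in the same order. The strongest AP-1 peaks were in siCtrl, with a highest fold of 14.0 and 21.2 against 5.98 and 6.36 in siCDK12. Strong AP-1 peaks, those whose -log10 q reached 5, numbered 34 and 19 in siCtrl and 2 and 1 in siCDK12. Over all distal sites, such peaks numbered 710, 412, 116 and 104. The AP-1 share among these strong sites was 4.79% and 4.61% for siCtrl, against 1.72% and 0.962% for siCDK12. Each siCDK12 share rests on 2 sites or fewer.

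Few AP-1 sites were found in more than 1 library. Of the 889 sites, 842 (94.7%) had a peak in a single library, against 95.7% of the distal sites with neither element and 63.8% of the distal ERE sites. Both siCtrl libraries had a peak at 26 AP-1 sites (2.92%) and both siCDK12 libraries at 4 (0.450%). Over all distal sites these shares were 2.43% and 0.818%. No AP-1 site had a peak in all 4 libraries (0 of 889, exact 95% upper limit 0.414%), whereas 15 of 437 distal ERE sites and 43 of 22758 sites with neither element did. Of the 187 AP-1 sites of siCtrl replicate 3, 26 (13.9%) had a peak in siCtrl replicate 2. That share was 73.8% for ERE sites and 9.61% for sites with neither element. The siCDK12 libraries shared 4 AP-1 sites, and pairs of 1 siCtrl and 1 siCDK12 library shared between 6 and 10. All distal sites showed the same order, with 197 shared by the siCDK12 libraries and 203 to 328 by such mixed pairs.

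**Figure D3:**
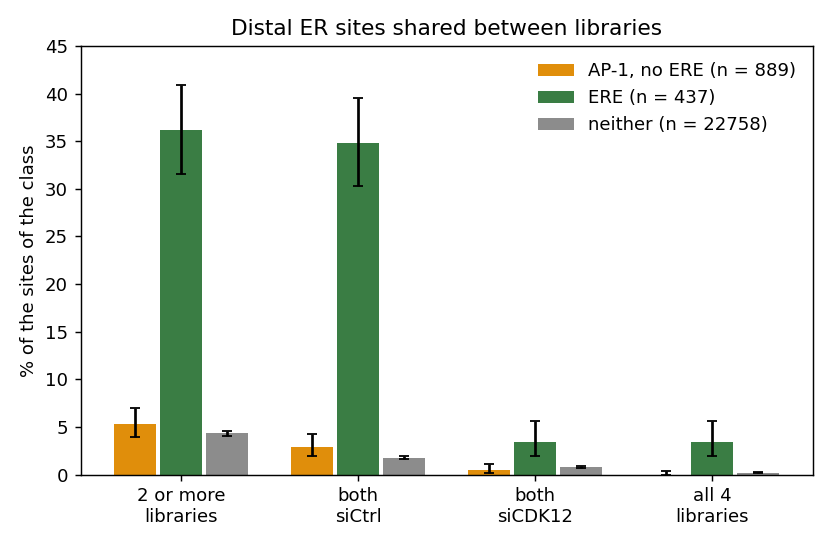
Share of distal ER sites (y axis, percent) with a peak in 2 or more libraries, in both siCtrl libraries, in both siCDK12 libraries and in all 4 (x axis), for sites with an AP-1 motif and no ERE, with an ERE, and with neither. Bars are exact 95% intervals. AP-1 sites (5.29% in 2 or more libraries) lie close to sites with neither element (4.33%) and far below ERE sites (36.2%).

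Lost AP-1 sites numbered 21 (2.36% of 889, 95% interval 1.47% to 3.59%), against 1.79% of all sites. Gained AP-1 sites numbered 3 (0.337%, 0.0696% to 0.983%), against 0.343% of all sites. Of the 26 AP-1 sites with a peak in both siCtrl libraries, 80.8% were lost (60.6% to 93.4%). This compares with 68.2% of all sites found in both siCtrl libraries, 70.4% of such distal ERE sites and 68.3% of such distal sites with neither element. Each of these intervals includes the share over all sites. Of all sites of a class, the share lost was 24.5% for distal ERE sites and 1.22% for distal sites with neither element (1.08% to 1.37%). The AP-1 interval of 1.47% to 3.59% thus lay above that of sites with neither element and far below the ERE share. By definition a lost site has a peak in both siCtrl libraries, as did 2.92% of AP-1 sites, 34.8% of ERE sites and 1.79% of sites with neither element. These shares were not tested. None of the 21 lost sites had a siCDK12 peak in the full deposited lists, which also hold peaks with a q-value above 0.05. Presence or absence of a peak was compared, which is not a test of the amount of ER bound.

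Among the 26 sites in both siCtrl libraries, 5 also had a peak in 1 siCDK12 library. The strongest was near PADI3, which encodes a peptidylarginine deiminase of hair follicle and skin, at chr1:17237427-17237720. It lay in intron 12 of the neighboring PADI1 and 11528 bp from the PADI3 start. Its fold was 14.0 in siCtrl replicate 2, 21.2 in siCtrl replicate 3 and 5.98 in siCDK12 replicate 3, with no peak in siCDK12 replicate 4. The pileup, the number of fragments over the summit (derived from fold and p-value), was 77 and 66 in siCtrl and 19 in siCDK12 replicate 3. This was the AP-1 peak with the highest -log10 q in each siCtrl library, 59.8 and 66.7.

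The site nearest to CLIC6, a member of the chloride intracellular channel family, lay 65889 bp from its start, in exon 3 of the lncRNA LINC00160 (chr21:34734745-34734987). Its fold was 8.15 and 9.96 in siCtrl and 4.47 in siCDK12 replicate 3. This site held 2 AP-1 motifs. The intergenic site nearest to SLITRK1, a neuronal membrane protein, lay 1576650 bp from its start (chr13:82305705-82305920). That site had folds of 13.9 and 8.35 in siCtrl and 5.95 in siCDK12 replicate 4. At these 3 sites, the siCDK12 fold was lower than both siCtrl folds.

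The other 2 such sites lay on chromosome 17 and had low folds. At PPM1D, a phosphatase that counteracts p53, the site covered exon 2 (chr17:60623529-60623749) with folds of 2.97 and 2.46 in siCtrl and 2.73 in siCDK12 replicate 3. The site nearest to CHCT1 lay in intron 2 of USP32, a ubiquitin protease (chr17:60328683-60329061), with folds of 2.59 and 2.53 in siCtrl and 3.38 in siCDK12 replicate 4. At neither site was the siCDK12 fold below both siCtrl folds. The local background under these 2 sites was between 8.43 and 10.7 times the genome level of the library.

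The 21 lost sites had folds from 2.66 to 11.0 in siCtrl replicate 2 (median 6.38) and from 2.15 to 9.62 in siCtrl replicate 3 (median 4.27). The lost site with the highest rank was 151354 bp from RAD23B, a DNA repair factor, at chr9:107131658-107131935. Its fold was 10.1 and 8.50, with pileups of 46 and 40. The second was 143078 bp from RGS9, a regulator of G protein signaling, at chr17:65243777-65244007, with folds of 8.10 and 7.67 and pileups of 44 and 36. Both of these sites were intergenic, and their 2 siCtrl libraries gave close values.

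The lost site at SYNDIG1, a synapse protein, lay in intron 3 of that gene (chr20:24660003-24660259) with folds of 11.0 and 9.62. At KRT85, a hair keratin, an intergenic site 4493 bp from the start (chr12:52371814-52372122) had folds of 10.3 and 7.55. The site nearest to PRDM1, a transcriptional repressor of lymphocyte differentiation, lay 141892 bp from its start, in an intron of the autophagy gene ATG5 (chr6:106135186-106135456). That site had folds of 9.57 and 7.55. These 3 sites were stronger in siCtrl replicate 2 than in siCtrl replicate 3.

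The lost site in intron 1 of ALX4, a homeobox gene (chr11:44300873-44301055), had folds of 6.38 and 8.64. The intergenic site nearest to VCAN, which encodes the matrix proteoglycan versican, lay 84407 bp from its start (chr5:83387136-83387323) with folds of 4.52 and 7.56. The site nearest to KLHDC4 (chr16:87790027-87790232) had folds of 8.83 and 3.54. The first 2 of these were stronger in siCtrl replicate 3 and the last in siCtrl replicate 2. Over the 26 sites in both siCtrl libraries, 20 had the higher fold in siCtrl replicate 2.

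Lost sites also included peaks with many fragments over a high background. The site 24712 bp from CYP24A1, the enzyme that breaks down active vitamin D, at chr20:54149175-54149368, had pileups of 114 and 116 but folds of 4.57 and 2.55, over a local background 23.9 and 38.7 times the genome level. The site in intron 16 of BRIP1, a helicase that works with BRCA1 in DNA repair (chr17:61738000-61738210), had pileups of 78 and 77 and folds of 2.93 and 2.40. The other 11 lost sites were nearest to ENSG00000284895, DENND2C, PXDN, ADAMTS9, ADCY5, PITX1, ATP6V0D2, RET, TMEM233, LRFN5 and DOK5. The site near RET, a receptor tyrosine kinase, had the highest fold of these in siCtrl replicate 2, 9.05, and 3.46 in siCtrl replicate 3.

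**Figure D4:**
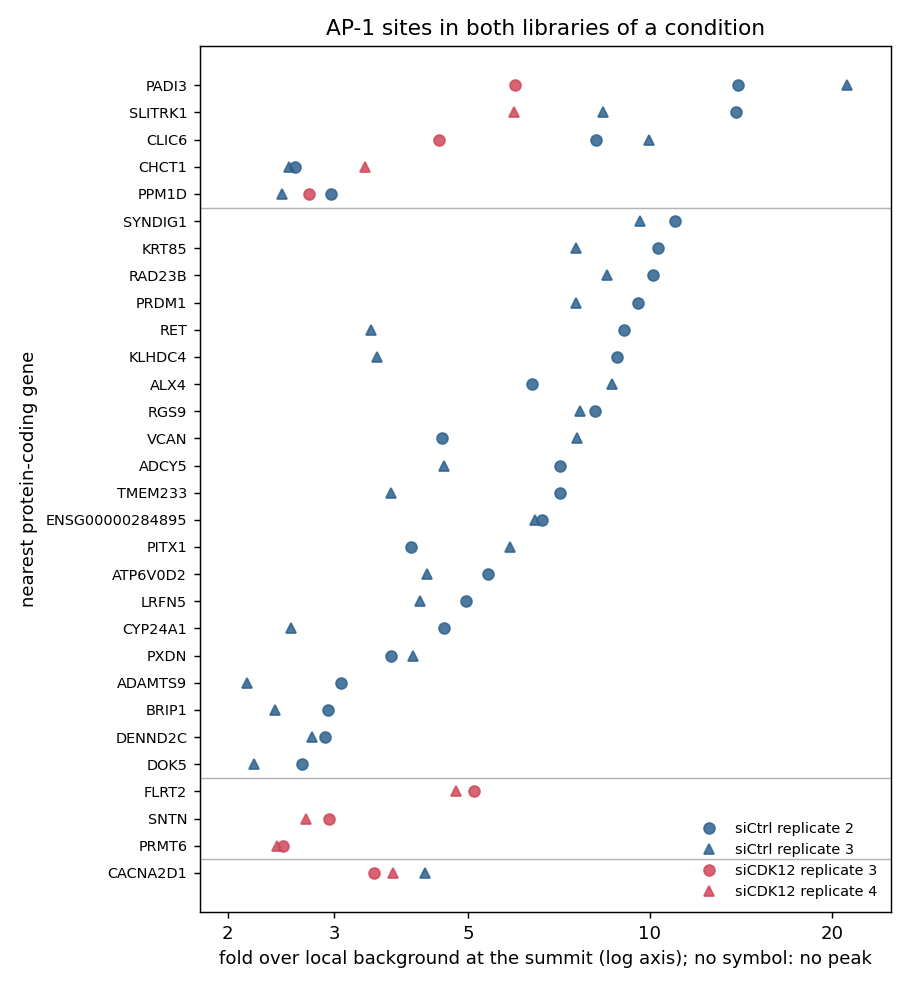
Fold over local background at the summit (x axis, log scale) at the AP-1 sites with a peak in both libraries of a condition, named by the nearest protein-coding gene (y axis). Circles and triangles are the libraries of a condition, and a missing symbol means no peak; from top to bottom, the blocks are both siCtrl and 1 siCDK12 library, lost, gained, and both siCDK12 and 1 siCtrl library. The highest values are the siCtrl folds at PADI3, 14.0 and 21.2.

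Of the 3 gained sites, those at SNTN and PRMT6 had folds below the median of the lost sites in either siCtrl library, 6.38 and 4.27. The folds at FLRT2 lay between these medians. The site nearest to FLRT2, a cell adhesion protein, lay 470746 bp from its start, in intron 1 of LINC02328 (chr14:86000758-86000981), with folds of 5.12 and 4.77. At SNTN, which encodes a protein of motile cilia, the site in intron 3 (chr3:63662048-63662282) had folds of 2.94 and 2.70. The intergenic site nearest to PRMT6, an arginine methyltransferase, lay 435965 bp from its start (chr1:106620456-106620773) with folds of 2.47 and 2.41. At -log10 q of at least 3, no gained AP-1 site was left. A further site, nearest to CACNA2D1, had a peak in both siCDK12 libraries (folds 3.50 and 3.75) and in siCtrl replicate 3 (4.25).

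The AP-1 peak with the highest -log10 q in siCDK12 replicate 3 was nearest to NACA2 and lay in intron 18 of BRIP1 (chr17:61689840-61690044). Its fold was 2.44 there and 2.40 in siCtrl replicate 3, over a background 25.1 and 23.9 times the genome level. In siCDK12 replicate 4 the strongest AP-1 peak was 514615 bp from FBXO33, an F-box protein (chr14:39946970-39947201), with a fold of 6.36 and a pileup of 14, and it had no peak in another library. A peak in 1 siCtrl and 1 siCDK12 library alone was present at 17 AP-1 sites (1.91%), against 1.95% of sites with neither element.

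The AP-1 sites found in both siCtrl libraries often held sequence close to an ERE, although the rule had left out any ERE with 1 mismatch. At 16 of the 26 (61.5%, 95% interval 40.6% to 79.8%), the closest ERE match within 100 bp had 2 mismatches. The share was 10.9% of the 842 AP-1 sites in a single library, and 35.4% of the 407 sites with neither element that had a peak in both siCtrl libraries (30.7% to 40.2%). The AP-1 letters overlapped the ERE match at 3 of the 16 sites, and without these it was 13 of 26 sites. An ERE half-site (GGTCA, either strand) was present at 20 of the 26 (76.9%, 56.4% to 91.0%), at 59.7% of the sites with neither element in both siCtrl libraries, and at 32.4% of AP-1 sites in a single library. Over all 889 AP-1 sites the half-site was no more frequent than in sites with neither element, 33.6% against 35.6%. Near-ERE sequence was thus frequent at sites found in both siCtrl libraries with or without AP-1, and these shares are descriptions with no test.

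The closest ERE matches of 7 of these sites are shown because they bear on the absence of an ERE. Each is the GRCh38 plus strand, 5′ to 3′, and capitals mark the fixed bases that match the ERE, so that 2 of the fixed bases are in lower case beside the 3 spacer bases.
PADI3, chr1:17237594-17237606: GGgCAcccTGACa
RAD23B, chr9:107131797-107131809: GGTCActtgGcCC
RGS9, chr17:65243885-65243897: GGgCAggtTGgCC
SYNDIG1, chr20:24660153-24660165: GGTCAgggcaACC
PRDM1, chr6:106135328-106135340: tGTCAagaTGACa
RET, chr10:43026612-43026624: ccTCAgggTGACC
TMEM233, chr12:119480333-119480345: GGTCggtcTGACt
The centre of the match lay 30 bp from the summit at PADI3, 1 bp from it at RGS9, and 82 and 23 bp from the centre of the AP-1 motif at those sites. The VCAN match overlapped its AP-1 motif, with centres 5 bp apart. When sites with an ERE of at most 2 mismatches were left out, 780 AP-1 sites and 9 of the lost sites were left.

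**Figure D5:**
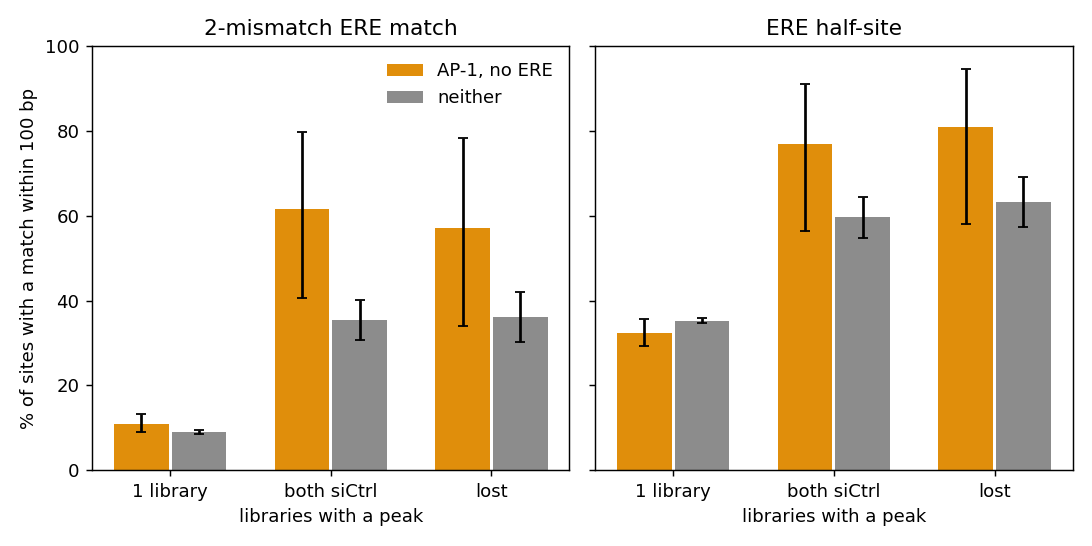
Share of sites (y axis, percent) whose closest ERE match has 2 mismatches (left) and share with an ERE half-site (right) within 100 bp of the summit, for sites with a peak in 1 library, in both siCtrl libraries, and lost (x axis). Orange is AP-1 sites without an ERE, grey is distal sites with neither element, and bars are exact 95% intervals; both shares are higher at sites in both siCtrl libraries (61.5% and 76.9% for AP-1) than at sites in 1 library (10.9% and 32.4%).

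Among distal sites without an ERE, the AP-1 share varied with the libraries that had a peak. Where both siCtrl libraries had one, it was 6.00% of 433 sites (95% interval 3.96% to 8.67%). In the downstream windows of the same sites it was 1.85% (0.801% to 3.61%). At the 299 lost sites among these 433 it was 7.02% (4.40% to 10.5%), with 1.34% downstream (0.366% to 3.39%). At the 182 sites in both siCDK12 libraries it was 2.20% (0.602% to 5.53%), with 3.30% downstream (1.22% to 7.04%). At the 22614 sites of a single library it was 3.72% (3.48% to 3.98%), with 2.95% downstream (2.73% to 3.17%). The summit and downstream intervals overlapped only at the sites in both siCDK12 libraries, and these shares were not tested. The intervals of the sites in both siCtrl and in both siCDK12 libraries overlapped. All of these shares leave ERE sites out of the base. With ERE sites counted, 26 of 585 distal sites in both siCtrl libraries were AP-1 sites.

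At a -log10 q of 5 or more, AP-1 sites were outnumbered by ERE sites in each library. Among the 1000 strongest distal sites, siCDK12 replicate 4 had 43 AP-1 sites and 26 ERE sites, whereas ERE sites were more numerous in the other libraries. Over all distal sites, the balance between them differed by condition. Per distal ERE site there were 1.36 and 0.908 AP-1 sites in siCtrl, and 2.01 and 3.00 in siCDK12, where ERE sites numbered 70 and 60 against 319 and 206. The difference of the mean log2 ratios was 1.15, with means of 0.15 in siCtrl and 1.30 in siCDK12 (two-sided exact permutation test, p = 0.333). Both siCDK12 ratios were above both siCtrl ratios. At a -log10 q of 5 or more the difference was -0.83, since AP-1 peaks then numbered 34, 19, 2 and 1 and ERE peaks 166, 116, 21 and 9. The order of the conditions thus turned at that threshold.

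Local background was high at many of the repeated AP-1 sites. It is given relative to the genome level of a library, taken as the lowest value that 50 or more of its peaks have in common. It was over 3 times that level at 103 of the 889 AP-1 sites (11.6%) and at 10.8% of all distal sites. Among AP-1 sites it was over 3 times at 15 of the 26 in both siCtrl libraries and at 79 of the 842 in a single library, and 57.3% of all distal sites in both siCtrl libraries were above it. Without peaks of high local background, a choice made after the values were seen, there were 9 lost and 1 gained AP-1 sites, and the ratio of AP-1 sites per library was 0.507. The part of local background in which sites recurred was not tested.

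Some genes were nearest to several AP-1 sites. The 889 sites had 719 nearest protein-coding genes, and 120 of these had 2 or more sites. DOK5, an adaptor of receptor tyrosine kinases on chromosome 20, had 9, spread over 668 kb, among 225 distal ER sites nearest to it. ADAMTS9, a secreted metalloprotease on chromosome 3, had 6 of 139. PRMT6 on chromosome 1 had 5 of 120, and NCOA3, an ER coactivator on chromosome 20, had 5 of 64. The median local background at these sites was 13.5 times the genome level at DOK5, 13.3 at ADAMTS9, 7.07 at PRMT6 and 16.7 at NCOA3. BCL11B, a transcription factor gene on chromosome 14, had 5 sites of 37 with a median background of 1.41. These 5 genes had 1 AP-1 site each in 2 or more libraries, except NCOA3, which had none. Over all distal sites, 889 of 24084 were AP-1 sites. The counts per gene were not read as a gathering of AP-1 sites, which was not tested.

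AP-1 sites lay in the same kinds of places as other distal sites. Introns of protein-coding genes held 379 (42.6%), exons 14 (1.57%), lncRNA genes 145 (16.3%) and intergenic sequence 351 (39.5%), against 42.5%, 2.73%, 15.7% and 39.0% for sites with neither element. The median distance to the nearest protein-coding start was 104 kb, against 96.7 kb for sites with neither element and 58.4 kb for ERE sites. Within 100 kb of an AP-1 site lay the start of 799 of 19962 protein-coding genes (4.00%).

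Some genes of the AP-1 and estrogen pathways were nearest to an AP-1 site. Over all protein-coding genes, 3.60% were nearest to one and 4.00% had one within 100 kb. Of 19 genes that encode AP-1 subunits and related factors, 3 were nearest to an AP-1 site (FOSL2, BATF and MAF). Within 100 kb, 3 had one (FOSL2, BATF and JDP2), and BATF and JDP2 shared the same site. FOSL2, which encodes the FOS family member FRA2, had a site 64170 bp away in an intron of BABAM2, with a fold of 3.88 in siCtrl replicate 3 alone. BATF, a FOS relative of lymphocytes, had a site 27417 bp away with a fold of 4.96 in siCtrl replicate 2 alone. MAF, a bZIP factor of the same superfamily, had 3 sites, all in siCtrl replicate 2 alone, at distances of 124498, 255988 and 273909 bp and with folds of 3.79, 5.96 and 4.40. None of these 5 sites had a siCDK12 peak, but each was found in 1 library only.

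Of 25 estrogen target genes, MYC and ASB13 were nearest to an AP-1 site, and ASB13 and TFF1 had one within 100 kb. The MYC site lay 806672 bp away and had a fold of 3.63 in siCDK12 replicate 4 alone. The ASB13 site, in intron 1 of that gene, had a fold of 4.40 in siCtrl replicate 3 alone. The TFF1 site lay 78087 bp from its start, in exon 14 of UBASH3A, with a fold of 3.67 in siCtrl replicate 2 alone. Of 13 genes of ER partner proteins, GATA3, GRHL2 and NCOA3 were nearest to 8 AP-1 sites, each in 1 library, and GRHL2 and NCOA3 had sites within 100 kb. The GATA3 sites lay 879232 and 923080 bp away with folds of 4.47 and 4.25 in siCtrl replicate 2, and the GRHL2 site lay 16287 bp away with a fold of 3.29 in siCDK12 replicate 4. The 5 NCOA3 sites had peaks in siCtrl replicate 3 (folds 2.57 and 2.86), siCDK12 replicate 3 (2.13) and siCDK12 replicate 4 (2.55 and 2.33). Of 20 known AP-1 target genes, such as the metalloprotease gene MMP1, none was nearest to an AP-1 site or within 100 kb of one. With so few genes in each list, these counts were not read as a difference from the shares over all genes.

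The shares of other motifs within 100 bp of the summit were close between AP-1 sites and distal sites with neither element. A RUNX motif (TGTGGT) was present at 18.1% and 18.4%, a TEAD motif (GGAATG) at 11.8% and 10.8%, a GATA motif (AGATAA) at 7.31% and 7.27%, and a GC box (GGGCGG) at 3.37% and 4.35%, both strands searched. A forkhead motif (TGTTTAC), the type bound by FOXA1, was present at 1.12% (0.541% to 2.06%) and 1.85%. In the downstream windows of the AP-1 sites, GATA and forkhead motifs were more frequent than at the summits, 16.4% and 4.16%. The same held at sites with neither element, with 15.3% and 3.11% downstream. RUNX, TEAD and GC box motifs were less frequent downstream of the AP-1 sites, 11.2%, 11.0% and 2.02%. The downstream windows had a lower GC content, and its part in these shares was not tested. The grainyhead motif (AACCNGGTT) was at 0 of 889 AP-1 sites, with an exact upper limit of 0.414%, and at 0.176% of sites with neither element. A MAF-type element (TGACNNNGC) was present at 17.7% against 7.86%, but its first letters are also those of AP-1 and the matches can overlap. The longer form of the AP-1 element (ATGACTCAT or ATGAGTCAT) was present at 30 AP-1 sites (3.37%), and at 2 of the 26 in both siCtrl libraries. A cyclic AMP response element (TGACGTCA), which related bZIP dimers bind, was present at 3 AP-1 sites.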

How the data were processed

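ER ChIP-seq peak lists of 4 LY2 libraries were used, and the input libraries were not analysed here. Per the methods, the authors cleaned the reads, mapped them with BWA-MEM (GRCh38) and ran MACS2 in narrow peak mode on each library, at a stated false discovery rate of 0.05. In the deposited lists, the fold is a ratio of fragment pileup to local background at the summit. The −log10 p-value and −log10 q-value are those the authors deposited for the summit, and the score they deposited is 10 times the −log10 p-value cut to a whole number. The values were not scaled between libraries by the authors. The lists as deposited (15149, 6913, 6653 and 7229 peaks) extend to higher q-values, and those peaks were left out. Read totals are not part of peak lists, so depth was not derived.

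Pileup and background were solved from fold and p-value, which gave whole pileups for at least 99.99% of peaks (relative tolerance 0.0001). The distance of over 1 kb from any start used 226963 transcript starts of 38726 GENCODE genes. Distances to a named gene were taken from a single start per protein-coding gene, so a transcript start can lie closer. The PADI3 site was 11528 bp from that gene start and 2062 bp from the closest transcript start of any gene. The sites, motifs and gene lists were chosen with earlier results of these data known. Sites were named as those with a peak in all 4 libraries (none), those in both siCtrl libraries and 1 siCDK12 library, the 10 lost and the gained sites ranking highest by mean percentile of −log10 q, and the strongest AP-1 site of each library. The other 11 lost sites, CACNA2D1, and genes with the most sites were named after their values were seen. Group means were compared by two-sided exact permutation tests over 6 assignments. Functions were tested on simulated data: all 2000 planted AP-1 motifs and all 300 planted lost sites were found. The paper's DiffBind test needs read counts and was not run. The tools were matplotlib 3.10.9, pysam 0.24.0, SciPy 1.17.1, pandas 2.3.3 and numpy 2.4.6 under Python 3.11.15.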

Additional observations from a re-analysis of the deposited data

How the results depend on the processing

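Over the alternatives, mean AP-1 sites per library stayed fewer in siCDK12 in 17 of 17 recomputations (ratio 0.0566 to 0.871). The mean AP-1 share of distal sites stayed lower in 17 of 17 (-3.36 to -0.188 points). These reuse the same libraries, and no exact permutation p-value was under 0.333. At a -log10 q of at least 3, the share in siCDK12 replicate 4 (4.32%) was above that in siCtrl replicate 2 (3.97%). With a motif window of 50 bp these shares were 1.78% and 1.70%. With 1 library left out, the ratio was 0.369 to 0.871, the share difference -0.882 to -0.297 points and the log2 difference of the AP-1 to ERE ratio 0.81 to 1.43. That log2 difference reversed once, to -0.83 at a -log10 q of at least 5, and was otherwise between 0.40 and 1.64. Lost AP-1 sites numbered 13 at a -log10 q of at least 5, 8 at a fold of at least 5, 11 with a motif window of 50 bp, 9 with EREs of at most 2 mismatches left out and 9 without peaks of high local background. Gained AP-1 sites numbered 0 at a -log10 q of at least 3, 0 at 5 and 0 at a fold of at least 5, and 1 without peaks of high local background. These alternatives keep fewer peaks or fewer sites by construction. With 1 library left out, lost sites numbered 24 to 418 and gained sites 3 to 166, the high values where a condition had a single library left. Peaks as deposited, equal peak numbers, summit windows, only exact EREs left out, a distance of 5 kb and any summit of a site changed neither the lost nor the gained count by more than 1.5 times, but equal peak numbers lowered the AP-1 sites of siCtrl replicate 2 from 434 to 175 and peaks as deposited raised those of siCDK12 replicate 3 from 141 to 212. Starts of genes alone, in place of transcripts, gave 918 AP-1 sites; this choice and the one on local background were added after seeing the data. No paired analysis was possible because siCtrl and siCDK12 have a single replicate number in common. A site without a peak can still bind ER below detection, and without read counts no change in the amount of ER at a site was tested.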

Other observations

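Some neighboring sets of sites were outside the rule. Distal sites with both an AP-1 motif and an ERE numbered 20, with 15 and 13 in the siCtrl libraries and 3 and 2 in the siCDK12 libraries. Of these, 9 had a peak in both siCtrl libraries, 6 were lost and 1 had a peak in all 4. That site was 36312 bp from TMEM120B, with siCtrl folds of 11.0 and 16.1 and siCDK12 folds of 3.83 and 4.77. The site nearest to CTAG2, a cancer-testis antigen gene, had folds of 25.2 and 14.2 in siCtrl and 5.39 in siCDK12 replicate 3. At PLCG2, a phospholipase of receptor signaling, the folds were 16.7 and 8.50 in siCtrl and 4.52 in siCDK12 replicate 3.

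Sites with an AP-1 motif, no ERE and a transcript start within 1 kb numbered 52. They had 28 and 12 peaks in the siCtrl libraries and 10 and 8 in the siCDK12 libraries, 3 were lost and none was gained.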
